A study of Mus musculus with 3 samples.

Results

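The genes of the Mediator complex, of RNA polymerase II and of the TBP-associated factors (TAFs) were taken as 1 module of the transcription machinery. The module held 67 of the 21883 protein-coding genes of the GRCm38.p6 RefSeq table, taken by a rule on the symbol: 30 Mediator genes (Med followed by a digit), 13 RNA polymerase II genes (Polr2) and 24 TAF genes (Taf followed by a digit). RNA polymerase II transcribes all protein-coding genes. TFIID, built from the TATA-binding protein and most of the TAFs, recognises the core promoter, and Mediator passes signals from DNA-bound activators to the polymerase. Other TAFs work elsewhere, in the histone acetyltransferase complex SAGA or in SL1, the selectivity factor of RNA polymerase I. These genes are transcribed in nearly every cell type, apart from a few germline copies.

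The data came from alveolar type II (AT2) cells, the surfactant-producing cells of the lung, isolated from C57BL/6 mice aged 10 to 12 weeks and carrying no genetic change or treatment that the labels name. Chromatin was precipitated with an antibody against ETV5, an ETS-family transcription factor downstream of FGF and ERK signalling (1 library, 5715049 tags), or with an antibody against H3K4me3, histone H3 trimethylated at lysine 4, a mark of active promoters (1 library, 34907608 tags). Input chromatin served as the background. The labels list 1 input library, which is the one behind the H3K4me3 folds, while the ETV5 folds rest on an input that carries another name in the file header (27495486 tags, against 44758677). The labels do not say whether animals were pooled, and with 1 library per antibody no value has a replicate check. All 12 AT2 marker genes examined, among them Sftpc and Abca3, carried H3K4me3, against 3 of 18 leukocyte, endothelial, mesenchymal and airway markers. Those 3 were Cd68, Tek and Foxj1, and over all protein-coding genes the share was 59.4%.

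A peak was given to a gene when its summit lay in the gene or within 5 kb of it. ETV5 peaks belonged to 64 of the 67 genes of the machinery (95.5%, exact 95% interval 87.5 to 99.1), and H3K4me3 peaks to 65 (97.0%). Over all protein-coding genes these shares were 63.1% and 59.4%. Among genes that carried H3K4me3 the machinery had ETV5 at 64 of 65, a share close to the 95.2% of all such genes. The 2 genes without H3K4me3, Taf7l and Taf7l2, had no ETV5 either, where 16.1% of all genes without the mark had it. The strength of ETV5 differed widely among the 65 marked genes, from an ETV5 fold enrichment of 88.6 at Taf15 to 5.39 at Med12l and no ETV5 peak at Med27. Fold enrichment is the authors' value, fragments over the local input background. Pileup is the number of fragments over the summit, and its exact 95% Poisson interval covers counting error only.

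The 6 members with the highest ETV5 fold among those whose summit lay inside the promoter window show what sequence lay under it, and Med27 is set beside them as the promoter with H3K4me3 and no ETV5 peak. ETS factors bind a GGAA core, most strongly as CCGGAAGT, and also a GGAT core, which was not searched here. The sequences are those of RefSeq for GRCm38.p6, read 5′ to 3′ in the gene's direction, 250 bases before to 50 bases after the annotated start, and capitals mark GGAA or its complement TTCC.
Taf15: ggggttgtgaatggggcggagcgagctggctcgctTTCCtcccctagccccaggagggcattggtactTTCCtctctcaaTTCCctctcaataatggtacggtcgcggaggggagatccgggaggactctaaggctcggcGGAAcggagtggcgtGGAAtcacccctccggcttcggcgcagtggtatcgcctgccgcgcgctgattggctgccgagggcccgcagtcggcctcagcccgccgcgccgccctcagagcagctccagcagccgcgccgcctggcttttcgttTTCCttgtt
Taf11: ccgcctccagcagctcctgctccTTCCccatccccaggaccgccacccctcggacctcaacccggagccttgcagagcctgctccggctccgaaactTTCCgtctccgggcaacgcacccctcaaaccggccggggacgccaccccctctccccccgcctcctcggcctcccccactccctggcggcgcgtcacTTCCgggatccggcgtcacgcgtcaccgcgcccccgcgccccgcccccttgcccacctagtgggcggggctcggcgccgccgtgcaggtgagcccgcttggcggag
Polr2l: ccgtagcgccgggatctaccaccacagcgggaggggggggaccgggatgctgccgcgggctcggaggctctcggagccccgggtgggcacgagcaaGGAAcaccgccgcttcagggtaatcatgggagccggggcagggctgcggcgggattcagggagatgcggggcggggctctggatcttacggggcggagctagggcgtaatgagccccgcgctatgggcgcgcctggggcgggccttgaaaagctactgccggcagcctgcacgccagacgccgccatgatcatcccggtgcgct
Med14: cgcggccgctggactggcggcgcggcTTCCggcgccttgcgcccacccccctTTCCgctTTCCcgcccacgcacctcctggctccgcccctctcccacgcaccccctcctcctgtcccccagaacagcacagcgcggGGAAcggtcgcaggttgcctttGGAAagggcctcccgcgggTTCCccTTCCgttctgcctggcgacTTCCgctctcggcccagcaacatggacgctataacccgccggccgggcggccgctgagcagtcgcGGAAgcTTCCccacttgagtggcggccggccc
Med10: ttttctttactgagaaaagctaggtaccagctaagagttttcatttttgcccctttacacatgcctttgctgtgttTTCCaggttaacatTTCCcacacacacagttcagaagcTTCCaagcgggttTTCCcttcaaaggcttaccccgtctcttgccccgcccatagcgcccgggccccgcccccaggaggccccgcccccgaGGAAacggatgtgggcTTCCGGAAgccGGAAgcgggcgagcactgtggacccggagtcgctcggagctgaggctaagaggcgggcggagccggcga
Med25: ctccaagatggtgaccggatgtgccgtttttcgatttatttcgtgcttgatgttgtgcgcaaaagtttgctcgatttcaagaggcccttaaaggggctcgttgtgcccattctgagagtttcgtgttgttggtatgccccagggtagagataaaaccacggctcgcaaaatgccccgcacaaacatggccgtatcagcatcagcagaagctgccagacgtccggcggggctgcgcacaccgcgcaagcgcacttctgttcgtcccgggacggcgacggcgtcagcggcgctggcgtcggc
Med27: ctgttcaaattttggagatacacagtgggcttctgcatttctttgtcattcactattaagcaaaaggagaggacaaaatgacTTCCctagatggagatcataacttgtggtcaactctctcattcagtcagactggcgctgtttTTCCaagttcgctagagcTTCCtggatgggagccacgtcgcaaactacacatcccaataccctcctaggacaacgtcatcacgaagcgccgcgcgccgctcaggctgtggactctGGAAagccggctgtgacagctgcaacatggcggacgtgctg
They lie at chr11:83472858-83473157 (plus strand), chr17:27909193-27909492 (minus strand), chr7:141475104-141475403 (minus strand), chrX:12761924-12762223 (minus strand), chr13:69809632-69809931 (plus strand), chr7:44892375-44892674 (minus strand) and chr2:29346560-29346859 (plus strand). Counted from 1 at the 5′ end, the ETV5 summit fell on base 172 in Taf15, 182 in Taf11, 102 in Polr2l, 245 in Med14, 299 in Med10 and 85 in Med25. In Taf11 the centre of the only copy of CCGGAAGT was 14.5 bases from the summit. Polr2l held a single GGAA, 3.5 bases from the summit, and Taf15 held 6, the nearest at 14.5 bases, but neither held CCGGAA. Med25 had no GGAA in the window, although its peak was among the strongest. Its window does read accggatgt near the 5′ end, with the GGAT form of the core. GGAT or its complement ATCC can also be read in the windows of Taf15, Taf11, Polr2l, Med10 and Med27. Whether it matters for the Med25 peak was not tested. Med27, with no ETV5 peak, held GGAA 4 times and CCGGAA not once.

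Among Mediator genes, ETV5 lay at 29 of 30, with a median highest fold of 24.0 (quartiles 11.4 and 30.7). Mediator is built of a head and a middle module that touch the polymerase, a tail that meets activators, and a detachable kinase module. All 7 head genes had ETV5. Med6 had 46 fragments (33.7 to 61.4, fold 25.5), Med17 had 60 (45.8 to 77.2, fold 24.8) and Med18 had 63 (48.4 to 80.6, fold 24.0), each with its summit within 42 bp of the start. These 3 pileups overlap within their counting intervals. Med8 reached fold 25.5, and Med11 and Med20 stood lower at folds of 9.74 and 9.72. Med22 had the highest fold of the head genes, 45.4 (101 fragments, 82.3 to 122.7, chr2:26902501-26903273), but that peak lay 66 bp from an end of its neighbour Surf6, and at its own start Med22 had fold 12.2.

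In the middle module all 9 genes had ETV5, with a median fold of 25.7. Med31 had a pair of strong peaks, fold 54.5 with 144 fragments (121 to 170, chr11:72206671-72207767), 4470 bp beyond the gene and nearest to 4933427D14Rik, and fold 47.6 with 117 fragments inside the gene, 514 bp after its start and 60 bp from an end of 4930563E22Rik. Med10 had 90 fragments (72.4 to 110.6, fold 44.6, chr13:69809686-69810286). That summit lay 48 bp after the second of its listed starts, 6172 bp from the nearer end of the gene. Med4 followed at fold 30.4 (61 fragments, 46.7 to 78.4), and Med7 at 25.7 (46 fragments, 33.7 to 61.4). Med26, which links Mediator to elongation factors, had fold 20.5 at its own start and fold 32.3 at the neighbouring Slc35e1. Med1, which contacts nuclear receptors, had fold 11.3 at its start, and Med19, Med21 and Med9 had start folds of 11.4, 10.9 and 7.57.

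Med14, the X-linked backbone that holds head, middle and tail together, had 81 fragments (64.3 to 100.7, fold 47.7, chrX:12761627-12762567) with the summit 6 bp before its start. The tail had ETV5 at all 5 genes. Med25, whose product is known to bind the activation domain of ETV5 itself, stood highest with 87 fragments (69.7 to 107.3, fold 43.7, chr7:44892037-44892924). Med15, a partner of sterol response factors, had 68 fragments (52.8 to 86.2, fold 30.7). Med16 had fold 16.9, and Med23, a partner of the ETS factor ELK1, had fold 14.2 with 28 fragments (18.6 to 40.5). Med24 was the exception of the module: its highest ETV5 peak, fold 15.3 (35 fragments, 24.4 to 48.7), lay 4102 bp inside the gene and outside H3K4me3, while the peak in the H3K4me3 peak at the end of the gene had fold 3.76.

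Of the subunits at the contact of head and tail, Med29 and Med30 had folds of 39.6 and 28.4. The Med29 peak lay nearest to Zfp36 and its own start had fold 10.4. Med28 had 18 fragments (10.7 to 28.4, fold 8.39) although its H3K4me3 reached fold 48.1. Med27 had 289 H3K4me3 fragments (257 to 324, fold 33.0) in a peak of 926 bp, and the nearest ETV5 summit was 87562 bp from the gene. The kinase module, which holds Mediator away from the polymerase, had a median fold of 10.5, the lowest of the Mediator modules for the highest peak within 5 kb. For start peaks alone its median was again 10.5 (4 genes), and that of the head-tail contact genes was lower, 9.41, but over only 2 genes. Med12 had 25 ETV5 fragments (16.2 to 36.9, fold 16.0, chrX:101273827-101274680), Med13 had 35 (24.4 to 48.7, fold 11.7), Med13l had 14 (7.65 to 23.5, fold 9.26) and Med12l had 10 (4.80 to 18.4, fold 5.39). The interval of Med13 lies above those of Med13l and Med12l, and the others overlap. The difference from the other modules was not tested.

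**Figure D1:**
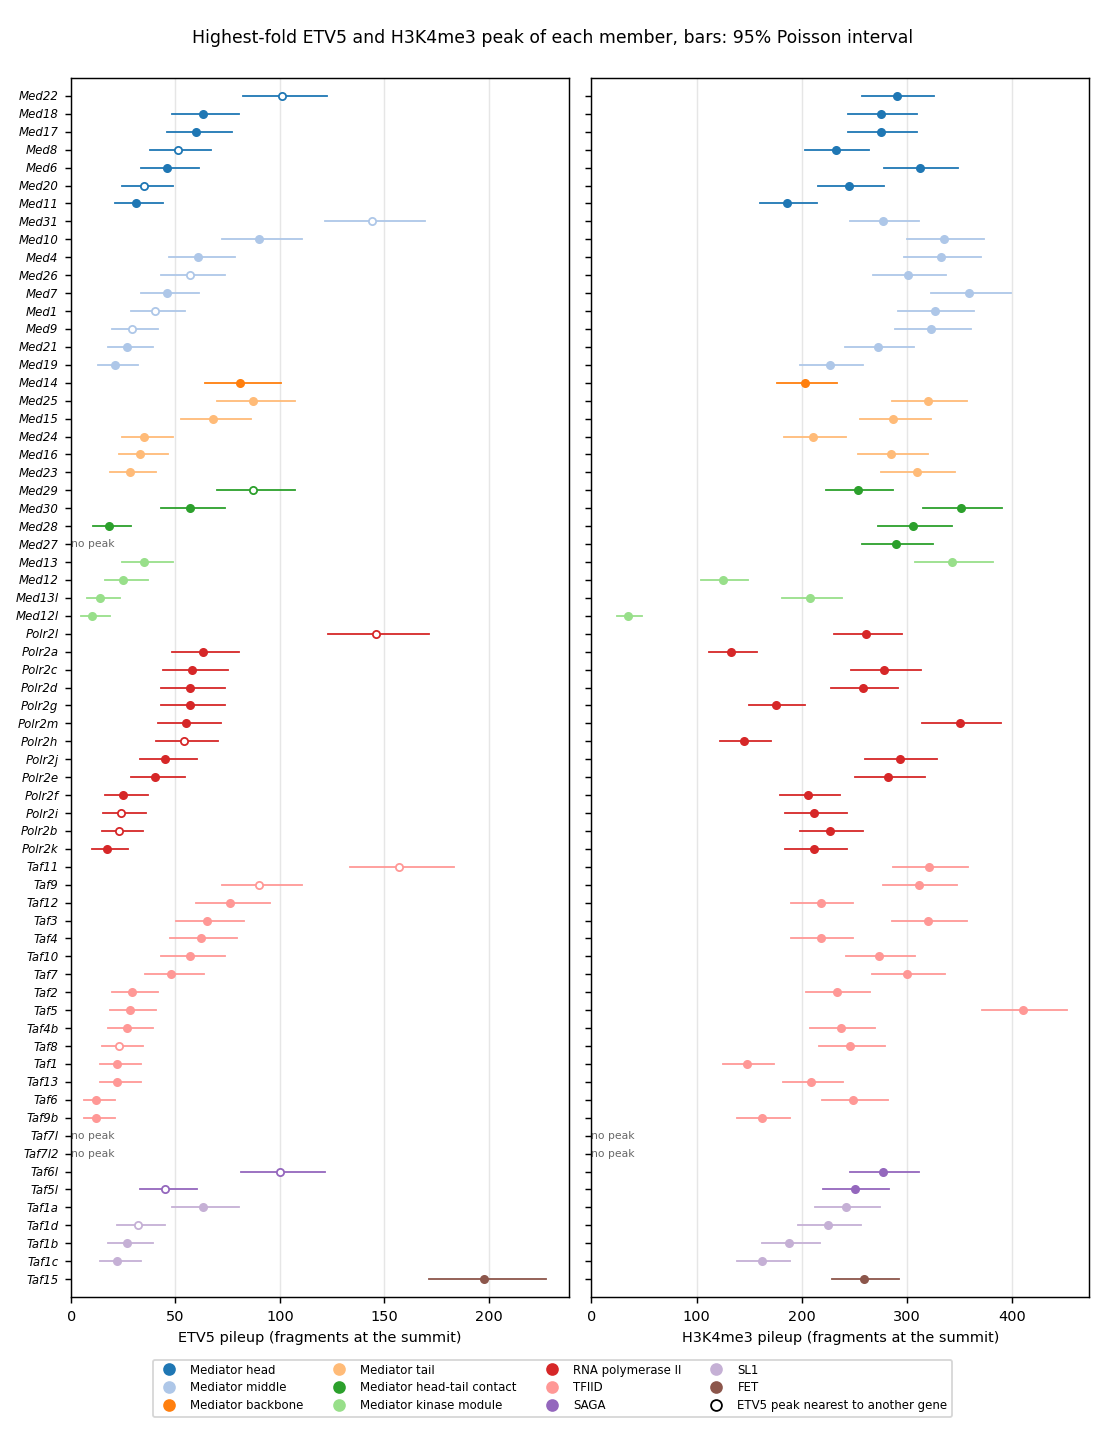
Pileup at the summit (fragments, linear axes) of the highest-fold ETV5 peak (left) and H3K4me3 peak (right) of each of the 67 genes, grouped by complex and sorted by ETV5 pileup. Bars are exact 95% Poisson intervals, open circles are ETV5 peaks whose nearest gene is a neighbour, and Taf15 has the highest ETV5 pileup, 198 fragments, while Med27, Taf7l and Taf7l2 have no ETV5 peak.

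RNA polymerase II had ETV5 and H3K4me3 at all 13 genes, with a median ETV5 fold of 19.2 (quartiles 11.8 and 31.1). Polr2a, which encodes the largest subunit with the heptad-repeat tail, had 63 fragments (48.4 to 80.6, fold 32.5) with the summit 86 bp before the start. Its H3K4me3 was modest, at fold 21.0 in a peak of 2356 bp. Polr2b, the gene of the second-largest subunit, had 23 ETV5 fragments (14.6 to 34.5, fold 11.8) with the summit 802 bp before its start and nearer to Noa1. The counting intervals of Polr2a and Polr2b do not overlap. Polr2c and Polr2j encode the partners that begin assembly of the enzyme, and had 58 and 45 fragments (folds 31.3 and 12.4). Polr2d and Polr2g, which form the stalk, had 57 each, with folds of 25.8 and 28.4.

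The 5 subunits that all nuclear RNA polymerases share ranged from the lowest to the highest fold of the complex. Polr2l had 146 fragments (123 to 172, fold 63.7, chr7:141474613-141476982), Polr2h had 54 (40.6 to 70.5, fold 19.2, nearest to Clcn2), Polr2e had 40 (28.6 to 54.5, fold 16.7), Polr2f had 25 (16.2 to 36.9, fold 9.06) and Polr2k had 17 (9.90 to 27.2, fold 9.54). Polr2l thus stood above the other 4, whose intervals its own does not meet. Its summit lay 149 bp before its start and 66 bp from an end of Tspan4, which starts in the opposite direction, so that the peak cannot be assigned to either gene. Polr2i, a subunit for transcriptional fidelity, had fold 9.76 with Tbcb as the nearest gene. Polr2m, whose product makes the polymerase depend on Mediator, had 55 fragments (41.4 to 71.6, fold 31.1) with the summit 7 bp after a listed start.

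Among the TAF genes ETV5 lay at 22 of 24. Of the 17 TFIID genes 15 had it, all but Taf7l and Taf7l2. Taf11, one of its histone-fold subunits, had 157 fragments (133 to 184, fold 66.0, chr17:27908893-27909992), nearest to Anks1 on the other strand. Taf9 had 90 fragments (72.4 to 110.6, fold 40.5, chr13:100650665-100651949) at a start that adjoins Rad17 and Ak6. Taf12, Taf3, Taf4, Taf10 and Taf7 had between 48 and 76 fragments, with folds of 24.0 to 29.4. The product of Taf3 reads H3K4me3 through its PHD finger, and its own promoter carried that mark at fold 49.7. Taf1, the X-linked gene of the largest subunit, had 22 fragments (13.8 to 33.3, fold 10.2), and Taf2, Taf5, Taf8 and Taf13 had folds of 17.5, 12.3, 11.0 and 12.6. Taf6 was the lowest of the TAF genes with ETV5, at 12 fragments (6.20 to 21.0, fold 5.79), although its H3K4me3 had fold 34.5.

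The TAF genes of other complexes had ETV5 as well. Taf1a, Taf1b, Taf1c and Taf1d, which encode the SL1 factor of RNA polymerase I, had folds of 28.5, 15.5, 12.2 and 11.5, each with the summit within 64 bp of a listed start. The Taf1a peak held 63 fragments (48.4 to 80.6, chr1:183388597-183389537). Of the genes classed here under SAGA and not under TFIID, Taf5l had 45 fragments (32.8 to 60.2, fold 25.1) beside Urb2. Taf6l had 100 fragments (81.4 to 121.6, fold 49.5, chr19:8774127-8775341) at its far end, nearest to Tmem179b, and fold 6.76 at its start. Taf15 had the strongest ETV5 peak of all 67 genes, with 198 fragments (171 to 228, fold 88.6, chr11:83472602-83473788). Its product is an RNA-binding protein of the FET family that associates with TFIID. By fold, Taf15 ranked 127 among the 13805 genes with ETV5.

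Several members have a paralogous copy, and some of these pairs differed in ETV5 beyond counting error. Taf7, which restrains the acetyltransferase activity ascribed to Taf1, had 48 ETV5 fragments (35.4 to 63.6) and 300 H3K4me3 fragments. Its germ-cell relative Taf7l and the copy Taf7l2 had neither ETV5 nor H3K4me3, and the nearest ETV5 summits were 65305 and 467702 bp away. Taf9 had 90 fragments and its X-linked copy Taf9b had 12 (6.20 to 21.0). Taf4 had 62 (47.5 to 79.5) and Taf4b, best known from ovary and testis, had 27 (17.8 to 39.3). For the pairs of Taf9 and of Taf4 the intervals do not overlap. The Taf9 peak lay 67 bp from an end of both Taf9 and Ak6, beside the Rad17 start, so it cannot be assigned to Taf9 alone. Taf4b nonetheless carried 237 H3K4me3 fragments, against 218 at Taf4. Med12 and Med12l had 25 and 10 ETV5 fragments with overlapping intervals, while their H3K4me3 pileups were 125 and 35. At their own starts Taf6 and Taf6l had similar folds, 5.79 and 6.76.

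The strength of ETV5 over the module was then set against all genes. In 32 of the 67 genes (47.8%) the highest fold was 20 or more, where 20.7% of all protein-coding genes reached it. Among the genes with H3K4me3 the shares were 49.2% (36.6 to 61.9) and 34.5%. With 10 as the limit there were 53 (79.1%), against 42.6% of all genes, or 81.5% (70.0 to 90.1) against 70.6% among genes with H3K4me3. The median highest fold was 21.6 over the 64 genes with ETV5 (95% interval 14.2 to 26.6). Over the genes of the whole table with both H3K4me3 and ETV5 it was 15.7, a value inside that interval. These shares and medians are descriptions of 1 library, with no test. When only peaks within 1 kb of an annotated start were counted, 54 of 57 genes with a listed start had ETV5 (94.7%, against 54.9% of all genes with a listed start) and 55 had H3K4me3 (against 53.5%). All but 1 of those 55 also had ETV5 there, and among all genes with H3K4me3 at a start 93.6% had it. The median start fold was 16.4, against 13.7 over all genes with an ETV5 start peak and 14.3 over those with H3K4me3 within 5 kb. The 10 genes with no listed start were Med8, Med23, Med24, Med30, Polr2d, Polr2g, Polr2k, Taf2, Taf4b and Taf7.

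**Figure D2:**
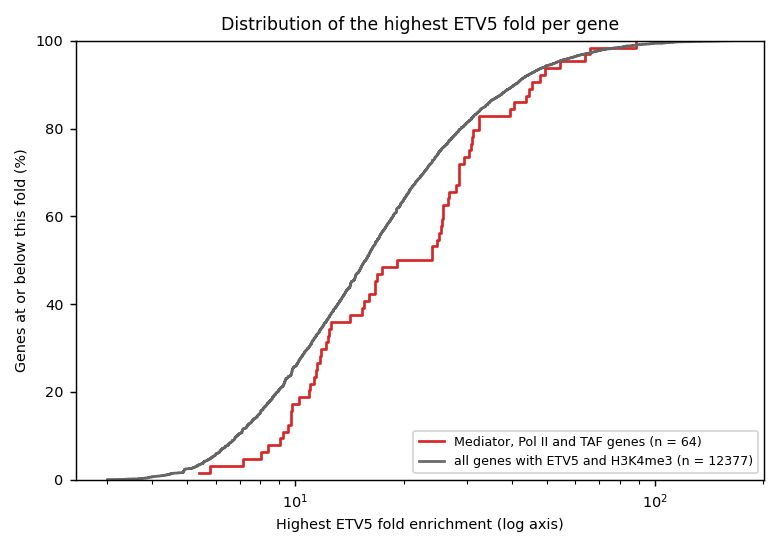
Cumulative share of genes (percent) by the highest ETV5 fold enrichment within 5 kb (log axis), for the 64 genes of the machinery with ETV5 and for all 12377 protein-coding genes with both ETV5 and H3K4me3. The curve of the machinery lies to the right over much of the range, with medians of 21.6 and 15.7.

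ETV5 sat close to the start of these genes. For the highest start peak of each of 54 genes, 32 summits lay within 100 bp of a listed start (59.3%, interval 45.0 to 72.4), against 40.5% over all genes with such a peak. Upstream and downstream positions were equally frequent, with 27 each. Their median position was 1 bp (quartiles -85.5 and 68.5, positive downstream), against 42 bp (-82.75 and 176) over all genes with such a peak. Med14, Med17, Polr2j, Polr2m, Taf10 and Taf13 had the summit within 11 bp of a start. The summits of Med12l, Polr2b, Med13, Taf5 and Med31 lay farthest away, at -904, -802, -759, 602 and 514 bp, counted positive downstream. H3K4me3 summits had a median position 182 bp after the start (quartiles 125.5 and 258.5). They lay downstream of the ETV5 summit in 44 of the 54 genes, and in 70.9% of all 8757 genes with both. The H3K4me3 summit was downstream of the start itself in 44 of 55 genes (80.0%, against 83% of all genes with such a peak). It was upstream in Med1, Med12l, Med13, Med22, Med25, Med29, Polr2a, Polr2l, Taf4, Taf9 and Taf11, at positions from -489 bp in Med13 to -98 bp in Taf9.

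**Figure D3:**
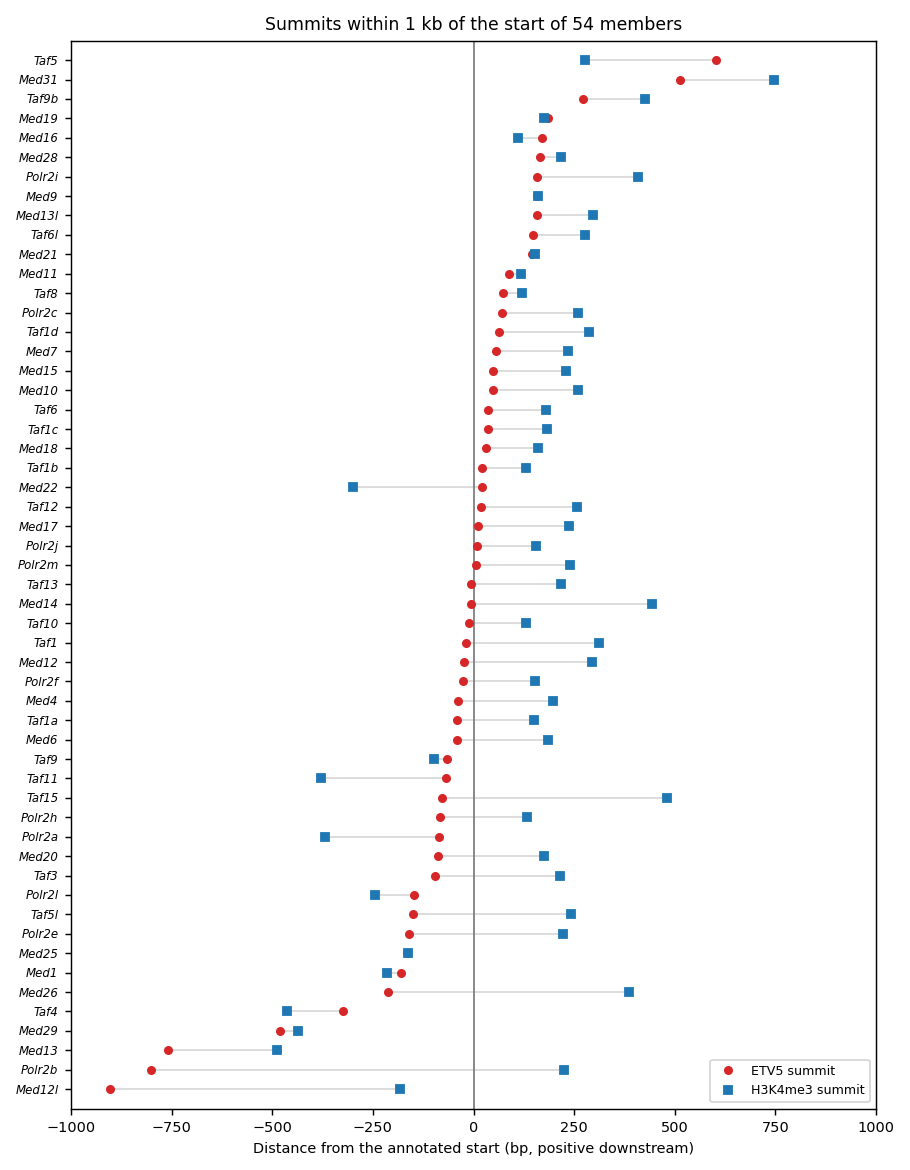
Position of the ETV5 summit (circles) and the H3K4me3 summit (squares) relative to the annotated start (bp, positive downstream) for the highest-fold peaks within 1 kb of the start in 54 genes. ETV5 summits cluster at the start, 32 of them within 100 bp, and most H3K4me3 summits lie to the right of them.

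Relative to the median, H3K4me3 fold varied less among the genes than ETV5 fold did (ETV5 quartiles 11.5 and 30.5). The same order held over all genes with H3K4me3, with quartiles of 23.6 and 45.2 for H3K4me3 and 9.81 and 25.3 for ETV5. The H3K4me3 library was the deeper of the 2, and what this adds was not tested. The median highest fold of H3K4me3 was 35.6 (quartiles 31.7 and 43.6) over the 65 marked genes, against 35.4 over all marked genes. Taf5 had the highest, fold 64.5 with 410 fragments (371 to 452), followed by Med7 at 56.5, Polr2m at 55.0 and Med13 at 54.0. Med12l had the lowest, fold 5.65 with 35 fragments. The widest peak was at Taf11 beside Anks1, 3432 bp, and those of Polr2h and Med14 reached 2924 and 2651 bp. Across the 64 genes with both marks, the Spearman correlation between the highest folds was 0.359, against 0.457 across all 12377 such genes. With start peaks only it was 0.187 across 54 genes and 0.432 across all. The genes share their libraries and are not independent replicates, so that these values are descriptions. Taf5 and Med28 illustrate the loose relation, with H3K4me3 folds of 64.5 and 48.1 and ETV5 folds of 12.3 and 8.39.

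**Figure D4:**
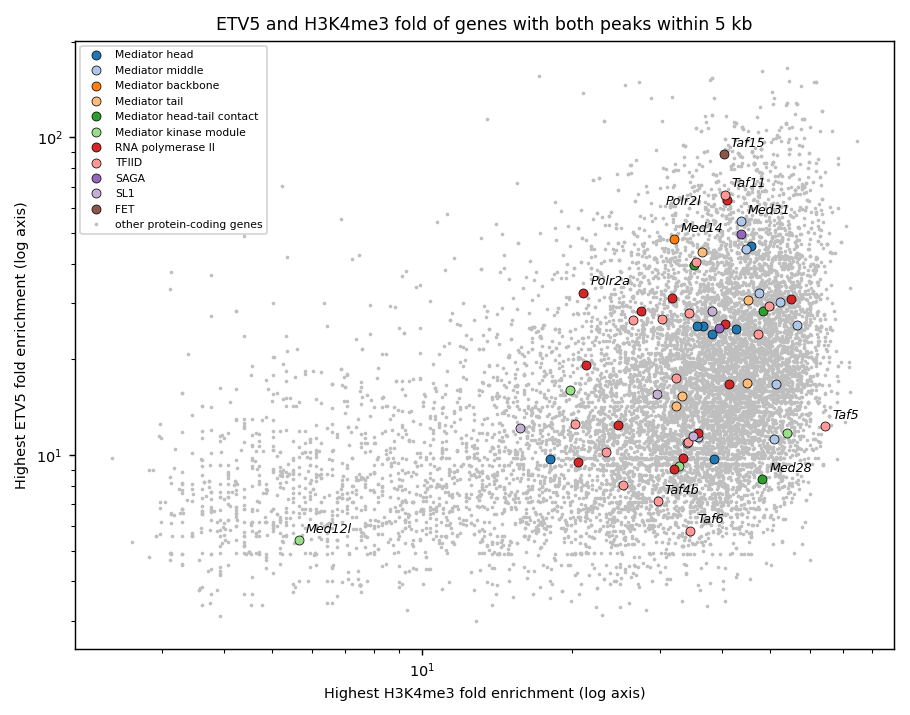
Highest ETV5 fold (log axis) against highest H3K4me3 fold (log axis) within 5 kb, for the genes of the machinery (coloured by complex) and the other protein-coding genes with both peaks (grey). Taf15, Taf11 and Polr2l stand highest at H3K4me3 folds of 40.3, 40.4 and 41.0, and Med12l is lowest in both. The ETV5 and H3K4me3 folds of a gene can come from different places, as at Polr2l, whose start had H3K4me3 at fold 33.9.

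The windows of the 64 genes held 123 ETV5 peaks, of which 95 (77.2%) overlapped H3K4me3, against 48.9% of all ETV5 peaks on assembled chromosomes. The highest ETV5 peak overlapped H3K4me3 in 63 of 64 genes, all but Med24, where 84.5% of all genes with ETV5 had such an overlap. Peaks over H3K4me3 had a median fold of 12.4 and the other 28 had a median fold of 5.24. In 33 of the 64 genes there were 2 or more ETV5 peaks (51.6%, against 57.8% of all genes with ETV5), most of all at Polr2e with 6. For H3K4me3, 18 of 65 genes had 2 or more peaks (27.7%, against 30.6%). In 11 of the 64 an ETV5 peak outside H3K4me3 had its summit inside the gene (17.2%, interval 8.90 to 28.7), against 36.3% of all genes with ETV5.

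Some of these peaks lie close to a neighbouring gene. In 18 of the 64 genes the highest ETV5 peak lay nearest to another gene, so that 71.9% were nearest to the gene itself, against 78.4% over all genes. A start on the other strand within 1 kb upstream was present at 12 of 57 genes (21.1%, interval 11.4 to 33.9), against 8.48% of all genes with a listed start. These neighbours were Rpl7a at Med22, Tmx2 at Med19, Paf1 at Med29, Bysl at Med20, Tbcb at Polr2i, Tspan4 at Polr2l, 1700088E04Rik at Polr2f, Cnpy4 at Taf6, Urb2 at Taf5l, 4931406C07Rik at Taf1d, Rad17 at Taf9 and Anks1 at Taf11. A ChIP peak between such starts does not show which gene it serves.

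CCGGAA, searched on both strands, was in the promoter window of 28 of 57 genes (49.1%, interval 35.6 to 62.7), against 20.9% of all genes with a window. Among genes with ETV5 within 1 kb of the start the shares were 51.9% (37.8 to 65.7) and 32.8%. None of the 3 members without ETV5 there, Med27, Taf7l and Taf7l2, held it, where 6.39% of all genes without ETV5 there did. It was present in 13 of 26 Mediator, 5 of 10 polymerase and 10 of 21 TAF genes. The longer CCGGAAGT, which contains CCGGAA, was in 11 of the 57 (against 5.69%), namely Med15, Med17, Med18, Polr2f, Polr2j, Taf1, Taf11, Taf12, Taf13, Taf1a and Taf1c, while the core GGAA was in 54 (against 96.4%). Of 35 windows of members that held an ETV5 summit (Taf6 and Taf11 have 2 each), 23 held CCGGAA (65.7%, against 45.0% of 4822 windows over all genes), with its centre a median of 30.5 bases from the summit (range 5.5 to 215.5), and over all genes that distance was 32.5 bases. Taf12 had 3 copies, the nearest 5.5 bases from the summit. The genes with CCGGAA had a median start fold of 25.0 (n = 28) and those without it 11.7 (n = 26), against 20.7 and 11.4 over all genes. Over the windows that held the summit the difference was smaller, 25.1 with CCGGAA (n = 23) and 19.8 without (n = 12). Over such windows of all genes the medians were 22.9 and 10.8. Of the 6 promoter windows with the highest ETV5 fold, those of Taf11, Med14 and Med10 held CCGGAA and those of Taf15, Polr2l and Med25 did not.

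The partners of these complexes that carry other names were examined from 4 lists, and all 83 genes had ETV5. Among 22 general transcription factors and associated kinases the median fold was 15.8, with Tbpl1, a relative of the TATA-binding protein, at 88.3, the TFIIH subunits Gtf2h1 and Gtf2h2 at 52.9 and 31.9, and the TFIIA subunit gene Gtf2a1 at 45.8. Cdk8, Cdk19 and Ccnc, which complete the Mediator kinase module, had folds of 14.2, 11.6 and 16.7. Beside them Med12, Med13, Med13l and Med12l had 16.0, 11.7, 9.26 and 5.39, and the median over all genes with both marks was 15.7. Tbp had 25.0. The 19 genes of RNA polymerases I and III had a median of 23.8, highest at Polr1c (73.0), Polr1a (48.5), Cd3eap (40.3) and Polr1b (37.3), of which only the Cd3eap peak had the gene itself as the nearest. Among 15 SAGA and ATAC partners the median was 17.3. Tada3 was at 111 (nearest gene Arpc4), Tada2b at 40.1 (nearest gene Ccdc96), Trrap at 31.1 and Atxn7l3 at 25.0. The 27 elongation factors had a median of 21.1. The super elongation complex gene Aff1 was at 86.9, the FACT subunit Ssrp1 at 72.6, Ccnt1 at 64.1 (nearest gene Kansl2) and Nelfb at 45.4. All 83 also carried H3K4me3, a class in which 95.2% of genes had ETV5.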

How the data were processed

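ETV5 and H3K4me3 peaks were called per library with MACS2 2.1.0.20150420, per the file headers, against an input library each, with a q-value threshold of 0.05 and 1 tag kept per position. The 2 inputs carry different names, and the labelled one is that used for H3K4me3. As to alignment, the tool was not given in the sources used here. Pileup signal, fold enrichment ratio, −log10 q-value and −log10 p-value are the authors' deposited values for each peak. The larger library was scaled down, per the file headers; this was the input in both cases, so ChIP pileups are unscaled fragment counts. The labels name mm9, but scaffold names and gene positions are those of GRCm38 (60.7% of H3K4me3 summits lay within 1 kb of a RefSeq start), so positions are given as GRCm38.

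Peaks on assembled chromosomes (31156 ETV5, 15129 H3K4me3) were joined to GRCm38.p6 RefSeq genes with Python 3.11.15, pandas 2.3.3 and scipy 1.17.1; starts, strands and promoters came from RefSeq windows of 17491 genes. Overlap meant 1 bp and was checked with bedtools 2.31.1. Figures used matplotlib 3.10.9. The steps were tested on simulated data. Intervals of pileups and shares are exact (Poisson, or Clopper-Pearson for shares) and cover counting error only. That of the median fold was read from the ordered folds of the genes. No test was possible with 1 library per antibody. A rule on gene symbols picks the members, but this module and the lists were chosen with earlier results of these data known. All members may be named; positions are given for the 10 highest ETV5 folds, with some others, and of each related list the 4 highest folds and any gene without ETV5, with Tbp and the kinase module partners added after their values were seen. ETV5 depth was the lower and limits which weak peaks could be called. Alternatives covered other windows, nearest genes, stricter thresholds, overlap rules and motifs.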

Additional observations from a re-analysis of the deposited data

How the results depend on the processing

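The number of genes with ETV5 (64) lay between 53 with peaks of fold of at least 10 and 64 with a window of 20 kb, and was 61 with summits within 1 kb of either end and 56 with each peak given only to the nearest gene. The number with H3K4me3 (65) lay between 55, of 57 genes with a listed start, and 65. The median ETV5 fold (21.6) lay between 15.8 with nearest genes only and 25.6 with 20 kb. Neither of these was computed over all genes, so they have no background value. The motif count depended on the motif: 28 promoters held CCGGAA, 54 the core GGAA and 11 CCGGAAGT. AGGAAG, chosen after seeing the data, was in 25 (43.9%, against 37.8% of all genes). The fold of single genes left the counting interval of its peak in 13 of 64 genes with 20 kb, in 6 of 56 with nearest genes only and in 5 of 61 within 1 kb of an end. With nearest genes only, Med8, Med22, Med29 and Taf6l had folds of 7.00, 12.2, 5.52 and 6.76. Under that rule 8 genes lost ETV5: Polr2l, Taf11, Med31, Taf9, Polr2h, Polr2i, Taf1d and Med20. No paired analysis was possible because each antibody has 1 library, and no library could be left out for the same reason. The ETV5 pileup of 10 at Med12l (4.80 to 18.4) shows how few fragments the weakest peaks rest on.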

Other observations

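Of the 28 ETV5 peaks outside H3K4me3, 17 lay inside the gene and 11 beside it, and 2 reached a fold of 10. The internal peaks lay in Med8, Med9, Med12l, Med13l, Med16, Med24, Med26, Polr2e, Taf1c, Taf2 and Taf8. Both were internal: the Med24 peak of fold 15.3, with 3 weaker peaks in the same gene at folds of 6.51, 5.72 and 5.11, and a peak of fold 10.65 (34 fragments) in Taf2, 28468 bp from the nearer end, with neighbours at folds of 8.13 and 5.37. Polr2e had 4 peaks outside H3K4me3, at folds of 9.35, 6.39, 5.47 and 4.53, the strongest 53 bp beyond the far end of the gene from its start. These are single-library values, and whether they recur was not tested.

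Of the 5 X-linked members, Med14, Med12, Taf1 and Taf9b had ETV5, with folds of 47.7, 16.0, 10.2 and 8.02, and Taf7l had none. Their median of 13.1 stands beside 24.0 over the 60 autosomal members with ETV5, and over all genes with ETV5 the medians were 9.79 on X and 14.5 on the autosomes. The H3K4me3 medians of the members were 24.3 on X and 35.8 on the autosomes, against 22.7 and 35.9 over all genes with H3K4me3. The sex of the animals is not in the labels.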
